A study of Mus musculus with 5 samples.

Results

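The genes described here are 10 components of the inflammasome pathway, measured by RNA-seq in LPS-stimulated bone marrow-derived macrophages (BMMs) given semaphorin 3G (Sema3G) or PBS. They were taken by symbol from the gene table of the series, in which all 10 had a row among 24419, and are the sensors Nlrp3, Nlrc4, Naip2, Aim2 and Nlrp1b, the adaptor Pycard, the caspases Casp1, Casp4 and Casp8, and the pore protein Gsdmd. Bone marrow cells of C57BL/6 mice (C57BL6/J in the study's methods) had been cultured with 50 ng/ml M-CSF for 5 days to give BMMs, and all 5 samples then received 100 ng/ml LPS, so no library shows these genes without LPS. A PBS control (n = 2) was compared with 100 ng/ml recombinant Sema3G (n = 3) after 18 h. The recombinant Sema3G was an Fc-tagged protein purified from the supernatant of transfected cells, whereas the control was PBS with no such protein. Sema3G is a secreted semaphorin that signals through neuropilin-2, and the comparison asks how it alters gene expression of activated macrophages.

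Inflammasomes are cytosolic complexes that turn the detection of a microbial product or of cell damage into the cleavage of caspase-1. A sensor assembles, in most cases through the adaptor ASC (encoded by Pycard), and caspase-1 then cleaves pro-IL-1β, pro-IL-18 and gasdermin D, whose released fragment forms pores in the plasma membrane and ends in the lytic cell death called pyroptosis. Mouse caspase-11, encoded by Casp4, binds LPS in the cytosol and cleaves gasdermin D directly. In macrophages LPS acts as the priming step, which raises the RNA of several components, and a further signal triggers assembly. RNA levels report the supply of components and not assembly, cleavage or pore formation, which were not measured here.

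The values are CPM, that is counts of unique molecular identifiers (UMIs) scaled to a common library total, with each RNA molecule counted at its 3′ end and no division by gene length, and differences are given as log2 fold changes of log2(CPM + 1), Sema3G minus PBS. The libraries held between 1798469 and 2215855 UMIs in all and between 1283029 and 1487137 UMIs on listed genes, and 3 UMIs correspond to between 1.35 and 1.67 CPM. All 7 macrophage markers examined were present, with a summed level of 9761 to 12570 CPM with PBS and 8857 to 9516 CPM with Sema3G, and all 4 LPS response markers (Acod1, Nos2, Il1b and Saa3) were present as well. Their summed level was 96820 to 126500 CPM with PBS and 69590 to 80510 CPM with Sema3G, most of it Saa3 (95190 and 123800 CPM with PBS, and 68320 to 78140 CPM with Sema3G), whereas the groups overlapped for Acod1, Nos2 and Il1b. Single macrophage markers moved in different directions, with Adgre1 and Csf1r below and Itgam above both PBS libraries in every Sema3G library, and the groups of Cd68, Fcgr1, Lyz2 and Cd14 overlapping. The part of these markers in the changes below was not tested. Of the 6 lymphoid markers 1 was above 0 in any library, with sums of at most 2.78 CPM. The neutrophil sums were 116.5 to 169.1 CPM with PBS and 103.5 to 132.7 CPM with Sema3G. Almost all of this was S100a8 (113.2 and 165.4 CPM with PBS, and 101.8 to 129.5 CPM with Sema3G). S100a9, Mpo and Camp reached at most 2.14 CPM in any library, and Elane, Ngp and Cxcr2 were at 0. The share of UMIs on no listed gene was 22.4% and 24.4% with PBS and 28.7% to 34.1% with Sema3G, and that of the ribosomal precursor row Rn45s was 1.01% and 3.19% with PBS and 6.31% to 7.88% with Sema3G. The median log2 fold change of all 10088 genes tested was -0.22, and it was -0.04 after scaling by TMM factors (trimmed mean of M values, a scaling by the bulk of genes), so each change below is best read against these medians. The part of the shares on unlisted genes and on Rn45s in the changes below was not tested.

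Of the 10 genes, Nlrp1b passed the test and rose, and no gene of the set fell (limma, two-sided, Benjamini-Hochberg adjusted p below 0.05 over all genes tested). Of all genes tested, 1.59% passed in the upward direction and 0.218% in the downward direction. At an unadjusted p below 0.05, 3 of the 10 were higher (Nlrp1b, Aim2, Casp4), against 6.83% of all genes tested, and 1 was lower (Casp8), against 14.2% of all genes. All Sema3G libraries were above both PBS libraries for 4 of the 10 (Nlrp1b, Aim2, Nlrc4 and Casp4), against 11.9% of all genes tested, and below both for 3 (Pycard, Casp8 and Gsdmd), against 26.5% of all genes. After TMM scaling these counts were 4 against 17.4%, and 1 (Gsdmd) against 15.7%. The median log2 fold change of the 10 was 0.12, and 8 of them lay above the median of all genes. Since all samples are bulk RNA, fewer cells of a kind and less RNA per cell cannot be told apart. The sources name 5 separate samples without naming separate mice or cultures, so the p-values measure only the spread between these samples, which may be technical.

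**Figure D1:**
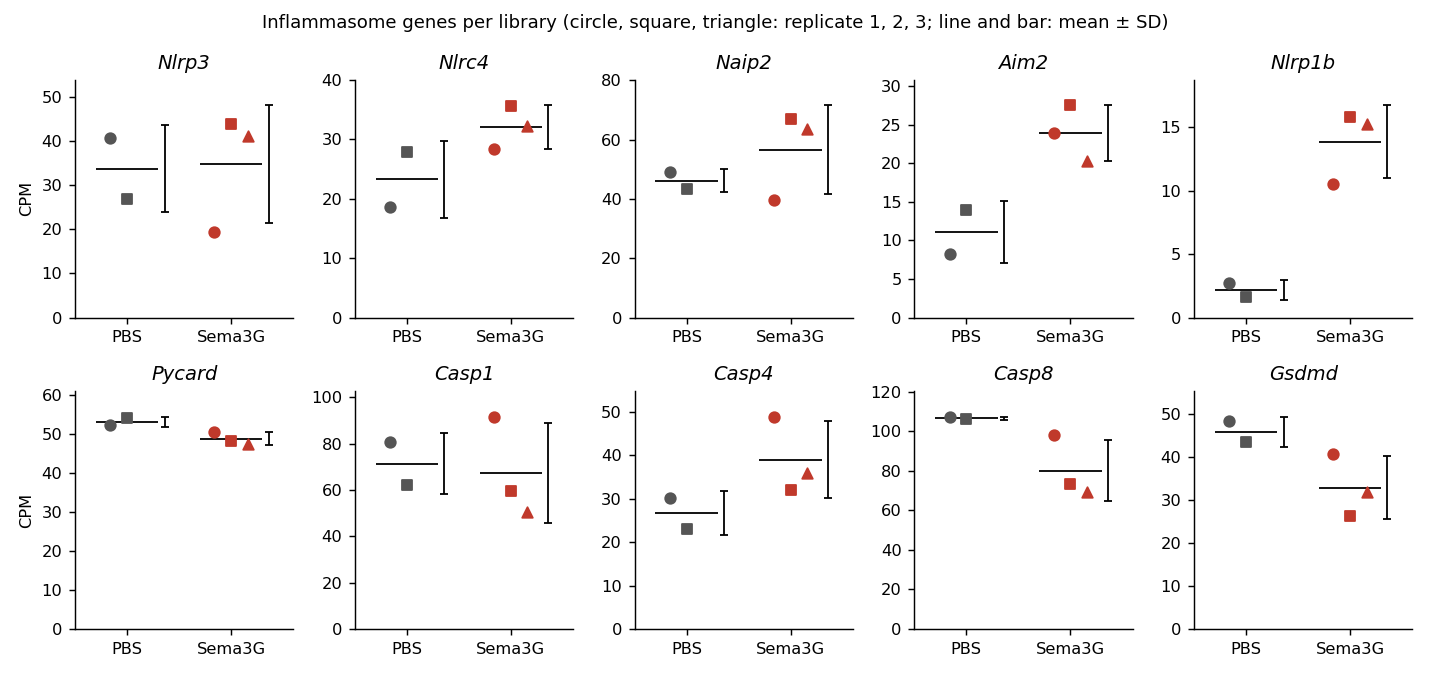
Level in CPM of each of the 10 genes in each library, with PBS in grey (n = 2) and Sema3G in red (n = 3); symbols mark replicate 1, 2 and 3, the line is the group mean and the bar the SD. Nlrp1b lay between 10.6 and 15.8 CPM in the Sema3G libraries and between 1.61 and 2.75 CPM in the PBS libraries, whereas the groups of Nlrp3, Naip2 and Casp1 overlapped.

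Nlrp1b and Aim2 showed the highest log2 fold changes of the set. The regions before their RefSeq start sites are shown for that reason, with a single start for Aim2 and a pair for Nlrp1b. The Aim2 start, at chr1:173420604, lies inside the GENCODE model of the gene, which begins at chr1:173350879 and has 7 transcripts. Other starts of that model were not searched. The sequences are from RefSeq (GRCm38.p6) and cover the 250 bases before each start site, 5′ to 3′ on the strand of the gene, with capitals marking a match to the NF-κB core letters GGGANTTTC. Aim2 lies on the plus strand, with the region at chr1:173420354-173420603, and Nlrp1b on the minus strand, with regions at chr11:71230734-71230983 for the outer start and chr11:71201457-71201706 for the inner start.
Aim2: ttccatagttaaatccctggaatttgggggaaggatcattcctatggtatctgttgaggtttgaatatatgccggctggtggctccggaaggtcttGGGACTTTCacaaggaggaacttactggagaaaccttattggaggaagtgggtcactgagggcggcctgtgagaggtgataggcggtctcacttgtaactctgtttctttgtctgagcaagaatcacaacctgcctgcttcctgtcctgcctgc
Nlrp1b, outer start: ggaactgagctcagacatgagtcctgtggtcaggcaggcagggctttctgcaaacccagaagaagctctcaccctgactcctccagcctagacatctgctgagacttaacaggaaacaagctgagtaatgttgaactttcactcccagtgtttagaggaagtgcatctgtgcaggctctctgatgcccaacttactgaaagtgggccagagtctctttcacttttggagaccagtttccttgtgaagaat
Nlrp1b, inner start: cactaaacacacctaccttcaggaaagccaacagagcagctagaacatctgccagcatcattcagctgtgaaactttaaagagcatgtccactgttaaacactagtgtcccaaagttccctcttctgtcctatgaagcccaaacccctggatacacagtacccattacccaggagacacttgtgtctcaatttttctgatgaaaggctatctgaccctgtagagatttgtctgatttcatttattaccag
The match in Aim2 lay 154 to 146 bases before the start site. NF-κB is a transcription factor that LPS activates. On either strand the core letters searched stood in 1.11% of 32851 promoters of 300 bases (250 before to 50 after the start). RefSeq gave 12 promoters for 9 of the 10 genes, and Aim2 was the only one of these 9 with these exact letters. Other forms of an NF-κB site were not searched, so a gene without these letters may still hold one. An interferon response core (GAAANNGAA, in 8.56% of all promoters) occurred in Naip2 alone, from 4 bases before to 4 bases after its start, and a STAT site (TTCNNNGAA, in 8.3% of all promoters) in none of them. Such a match is a description of letters and not a bound site.

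Nlrp1b rose. It encodes a sensor that is cleaved by pathogen proteases and then activates caspase-1, and the allele of C57BL/6 mice is one that does not respond to anthrax lethal toxin. The gene lies at chr11:71153102-71230733 on the minus strand (GENCODE M21, GRCm38) with 15 exons. The PBS libraries held 5 and 3 UMIs and the Sema3G libraries 19, 35 and 33, that is 2.75 and 1.61 CPM against 10.6, 15.8 and 15.2 CPM. Every Sema3G library was well above both PBS libraries. In PBS-treated cells the mean level came to 2.18 ± 0.807 CPM (SD, n = 2), and in Sema3G-treated cells to 13.9 ± 2.87 CPM (SD, n = 3). The log2 fold change was 2.23 (SE 0.381, 95% interval 1.43 to 3.03; limma, adjusted p = 0.00497), and with edgeR's quasi-likelihood test on the UMI counts it was 2.87 (adjusted p = 0.00575), where 2.98% of all genes passed upward. The pooled ratio was 6.49 with a 95% interval of 3.15 to 15.5, which covers counting error only and rests on 8 UMIs with PBS and 87 with Sema3G. Without Sema3G replicate 2 the adjusted p was 0.0522 and without Sema3G replicate 3 it was 0.0509, at log2 fold changes of 2.13 and 2.16. The Rn45s share moved with Nlrp1b between the groups, and Sema3G replicate 1, with the lowest Rn45s share of its group (6.31%), also had the lowest Nlrp1b level of its group. In the PBS group the order was the reverse, and Sema3G replicate 3, with the highest Rn45s share (7.88%), did not have the highest Nlrp1b level. Within either group the Nlrp1b levels did not differ beyond counting error (95% interval of the ratio 0.333 to 11.01 for PBS replicate 1 over 2, and 0.387 to 1.15 for Sema3G replicate 1 over 2 and 3). For the paralog Nlrp1a, at a distance of 8397 bases, the PBS libraries held 1 and 0 UMIs and the Sema3G libraries 1, 4 and 2, too few to test. Reads of near-identical stretches could have been split between the paralogs by the counting, so the level of Nlrp1b is uncertain to that extent.

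Aim2 was higher in every Sema3G library and missed the threshold. AIM2 binds double-stranded DNA in the cytosol and recruits ASC. Its gene at chr1:173350879-173466040 on the plus strand overlaps Cadm3 on the opposite strand. Whether the counting used strand is not stated, so RNA of Cadm3, whose own row is listed at 0 in every library, cannot be told apart from that of Aim2 where they overlap. That stretch holds the annotated 5′ ends of both genes. Their annotated 3′ ends, the side at which molecules were counted, lie outside it, at chr1:173466040 for Aim2 and chr1:173333258 for Cadm3. The PBS libraries held 15 and 26 UMIs and the Sema3G libraries 43, 61 and 44, or 8.24 and 13.9 CPM against 23.9, 27.5 and 20.3 CPM. The groups did not overlap, and the PBS libraries were further apart in proportion than the Sema3G libraries. The log2 fold change was 1.07 (SE 0.296, 95% interval 0.45 to 1.70; limma, adjusted p = 0.0709). After TMM scaling it was 1.29 with an adjusted p of 0.0295, in a fit where 3.21% of all genes passed upward, and with edgeR's quasi-likelihood test it was 1.30 with an adjusted p of 0.0343. The PBS libraries decided this value in part, since the log2 fold change was 0.73 (adjusted p = 0.295) without PBS replicate 1 and 1.42 (adjusted p = 0.0318) without PBS replicate 2. The Rn45s share was likewise higher in every Sema3G library, and PBS replicate 2, with the higher Rn45s share of the PBS libraries, also had the higher Aim2 count, within counting error (95% interval of the ratio of PBS replicate 1 over 2, 0.292 to 1.16). Among the Sema3G libraries the one with the highest Rn45s share (7.88%) had the lowest Aim2 level, on 44 UMIs against 43 and 61. No counting interval was computed for that library against the others, and the part of Rn45s in the Aim2 change was not tested.

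NLRC4 and its partner NAIP2 form the inflammasome that detects bacterial type III secretion rod protein, with NAIP2 as the receptor and NLRC4 as the part that polymerises. Nlrc4 (chr17:74425438-74459142, minus strand) measured 18.7 and 27.8 CPM with PBS and 28.4, 35.7 and 32.3 CPM with Sema3G. The lowest Sema3G library stood just above the highest PBS library. The log2 fold change was 0.47 (95% interval -0.06 to 0.997; limma, adjusted p = 0.293), and leaving out PBS replicate 1 or 2 gave 0.19 or 0.74. Naip2 (chr13:100144063-100202092, minus strand) measured 48.9 and 43.4 CPM with PBS and 39.5, 66.8 and 63.6 CPM with Sema3G, with a log2 fold change of 0.26 (95% interval -0.24 to 0.76; adjusted p = 0.542). Here Sema3G replicate 1 was below both PBS libraries and the other two Sema3G libraries above them. The Naip2 value was 0.46 after TMM scaling, 0.49 without Sema3G replicate 1 and 0.12 without Sema3G replicate 2, and it passed in no setting tried.

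Nlrp3 did not pass the test, and its direction depended on the scaling. NLRP3 responds to potassium efflux, crystals and other damage signals and is the inflammasome sensor that LPS priming is best known to induce. Nlrp3 (chr11:59541568-59566956, plus strand) measured 40.7 and 26.8 CPM with PBS and 19.5, 43.8 and 41.0 CPM with Sema3G. The Sema3G libraries held both the lowest and the highest value of the 5. The log2 fold change was -0.01 (95% interval -0.65 to 0.63; limma, adjusted p = 0.989) and 0.19 after TMM scaling. The replicates of a group differed beyond counting error: PBS replicate 1 was 1.52 times PBS replicate 2 (95% interval 1.05 to 2.22), and Sema3G replicate 1 was 0.459 times replicates 2 and 3 together (95% interval 0.310 to 0.661). With this spread, the interval still held a change of 0.63 in either direction on the log2 scale.

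Pycard, the adaptor that links sensors to caspase-1, did not pass the test. Pycard (chr7:127989708-127993867, minus strand) measured 52.2 and 54.1 CPM with PBS and 50.6, 48.3 and 47.5 CPM with Sema3G. The Sema3G libraries were all slightly below the PBS libraries, but after TMM scaling the log2 fold change turned from -0.12 (95% interval -0.55 to 0.31; limma, adjusted p = 0.753) to 0.08, and the groups overlapped.

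Casp1, the protease at the centre of the pathway, and Casp4, the LPS-binding caspase, are neighbours on chromosome 9 (chr9:5298517-5307265 and chr9:5308828-5336783, both on the plus strand) with 1562 bases between them. Casp1 measured 80.8 and 62.1 CPM with PBS and 91.7, 59.6 and 50.7 CPM with Sema3G, and the groups overlapped. Its log2 fold change was -0.12 (95% interval -0.62 to 0.39; limma, adjusted p = 0.802), and 0.09 after TMM scaling. Casp4 measured 30.2 and 23.0 CPM with PBS and 48.9, 32.0 and 35.96 CPM with Sema3G. All Sema3G libraries were above both PBS libraries, with a log2 fold change of 0.52 (95% interval 0.00 to 1.04; limma, adjusted p = 0.234), which did not pass the test, and of 0.33 without PBS replicate 2 and 0.35 without Sema3G replicate 1. Sema3G replicate 1 was the highest library of the 5 for both neighbours. The ratio of Casp4 to Casp1 UMIs in the same library was 0.374 and 0.371 with PBS and 0.533, 0.538 and 0.709 with Sema3G. All 3 Sema3G ratios lay above both PBS ratios, but the exact permutation test (two-sided) gave p = 0.2, the smallest that 2 against 3 libraries allow here. This ratio was chosen after its values were seen, and it is free of the scaling between libraries.

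Casp8 and Gsdmd were lower in every Sema3G library by the deposited scaling, and neither passed the test. Caspase-8 is the initiator of death receptor apoptosis and can also cleave gasdermin D. Casp8 (chr1:58795374-58847503, plus strand) measured 107.1 and 106.0 CPM with PBS and 97.9, 73.1 and 69.2 CPM with Sema3G. The PBS libraries almost coincided, and Sema3G replicate 1 stood apart from the other two of its group. Its log2 fold change was -0.43 (95% interval -0.85 to -0.002; limma, adjusted p = 0.234), and -0.22 after TMM scaling, where the groups overlapped. Gsdmd, which encodes the pore protein (chr15:75862327-75867408, plus strand), measured 48.4 and 43.4 CPM with PBS and 40.6, 26.2 and 31.8 CPM with Sema3G, with a log2 fold change of -0.49 (95% interval -0.985 to 0.01; limma, adjusted p = 0.244). After TMM scaling it was -0.29, and the groups still did not overlap.

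**Figure D2:**
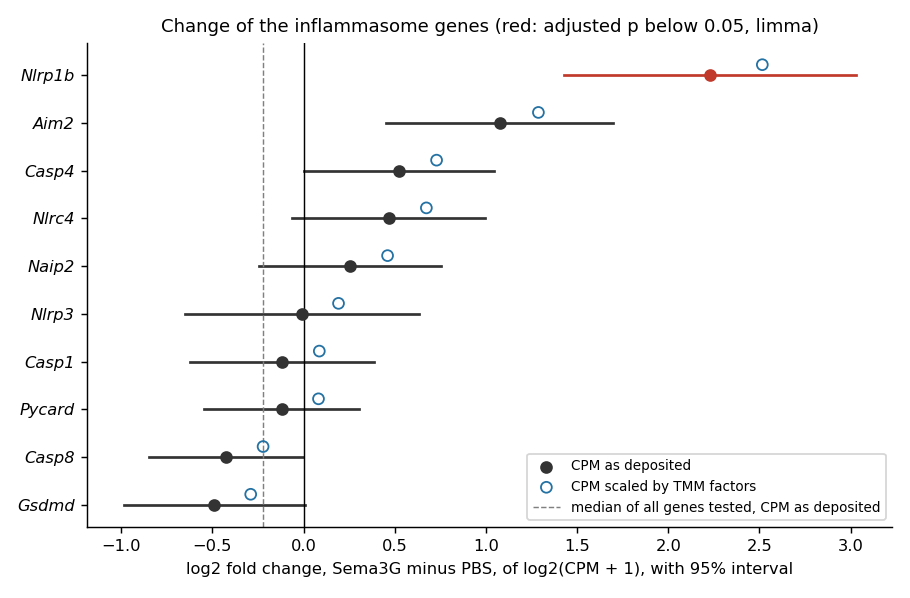
Log2 fold change of each of the 10 genes (Sema3G minus PBS, on log2(CPM + 1)) with its 95% interval, as deposited (filled) and after TMM scaling (open circles); the dashed line is the median of all genes tested, -0.22. The interval of Nlrp1b, in red, starts at 1.43, whereas the TMM values of Nlrp3, Pycard and Casp1 lie on the other side of 0 from the deposited ones.

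As a whole, the 10 genes gave 797 and 751 UMIs under PBS. Under Sema3G they gave 812, 950 and 884 UMIs. The summed level was 437.8 and 402.0 CPM with PBS and 451.5, 428.7 and 407.5 CPM with Sema3G, so the group ranges overlapped. Within that sum the Nlrp1b share was 0.627% and 0.400% with PBS and 2.34%, 3.68% and 3.73% with Sema3G. The Aim2 share was 1.88% and 3.46% against 5.30%, 6.42% and 4.98%. The Casp4 share was 6.90% and 5.73% against 10.8%, 7.47% and 8.82%. These 3 shares were higher in every Sema3G library. The Casp8 share was 24.5% and 26.4% against 21.7%, 17.1% and 17.0%. The Gsdmd share was 11.04% and 10.8% against 8.99%, 6.11% and 7.81%. The Pycard share was 11.9% and 13.5% against 11.2%, 11.3% and 11.7%. These 3 were lower in every Sema3G library, and those of the other 4 genes overlapped. Such shares have no rate over all genes to be read against. By CPM, all Sema3G libraries lay above both PBS libraries for 11.9% of all genes tested and below both for 26.5%. After TMM scaling Gsdmd was still below both PBS libraries, whereas the groups of Pycard and Casp8 overlapped. The shares do not depend on the scaling between libraries, but they sum to a fixed whole, so a rise of some lowers the others.

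**Figure D3:**
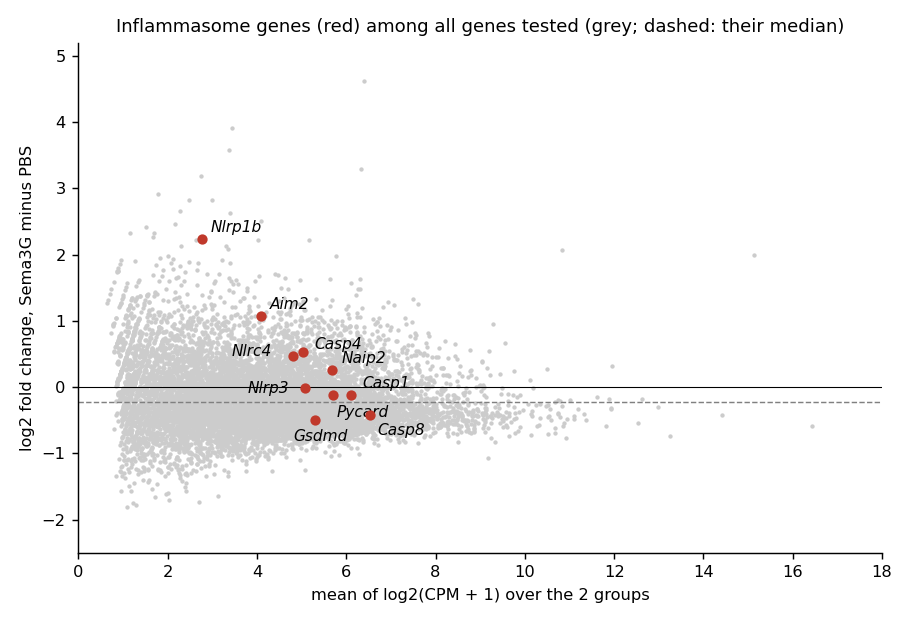
Log2 fold change (Sema3G minus PBS) against the mean level of each of the 10088 genes tested in grey, with the 10 inflammasome genes in colour. Nlrp1b, at 2.23, stands well above the median of all genes (-0.22), and Gsdmd, at -0.49, is the lowest of the 10.

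Sema3G replicate 1 differed from replicates 2 and 3 in several of the genes. Its level relative to those 2 libraries together was 0.459 for Nlrp3 and 0.605 (95% interval 0.460 to 0.787) for Naip2, whereas it was 1.66 (95% interval 1.36 to 2.04) for Casp1, 1.44 (95% interval 1.09 to 1.89) for Casp4, 1.40 for Gsdmd and 1.38 for Casp8. Sema3G replicate 1 also had the lowest Rn45s share of its group (6.31%). Without it, the log2 fold change was 0.35 for Nlrp3, 0.49 for Naip2, 0.35 for Casp4 (smaller than the 0.52 of all libraries), -0.36 for Casp1, -0.58 for Casp8 and -0.65 for Gsdmd, and none of these passed the test (limma, adjusted p between 0.0569 and 0.356).

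**Figure D4:**
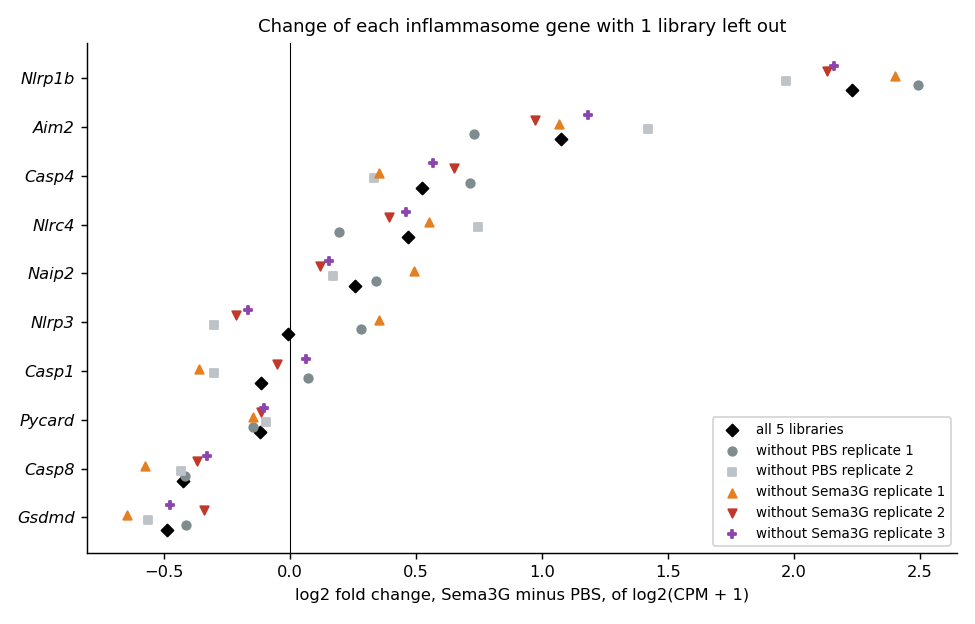
Log2 fold change of each of the 10 genes (Sema3G minus PBS, on log2(CPM + 1)) with all 5 libraries (black diamonds) and with each library left out in turn. Nlrp1b stayed between 1.97 and 2.49 and Aim2 between 0.73 and 1.42, whereas Nlrp3 ran from -0.30 to 0.35.

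The wider pathway was read from 7 lists of 56 genes, of which 48 passed the filter on low levels. None of the 48 passed the test by limma at an adjusted p below 0.05, 3 were higher and 5 lower at an unadjusted p below 0.05 (6.83% and 14.2% of all genes), and edgeR's quasi-likelihood test called 2, both higher (2.98% of all genes). Their median log2 fold change was -0.17, beside -0.22 for all genes. All Sema3G libraries were above both PBS libraries for 3 of the 48 (11.9% of all genes) and below both for 13 (26.5% of all genes).

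Of the other sensors 3 of 8 were tested. Mefv, which encodes the sensor pyrin, differed by -0.02 on the log2 scale (adjusted p = 0.957), and Naip5, a receptor for flagellin, of -0.72 (adjusted p = 0.201). Naip5 measured 30.2 and 18.7 CPM with PBS and 18.4, 14.9 and 10.1 CPM with Sema3G, lower in every Sema3G library. Naip2 and Naip5 lie 9646 bases apart, and the ratio of their UMIs was 1.62 and 2.31 with PBS and 2.15, 4.49 and 6.27 with Sema3G. These ratios overlapped (exact permutation test, two-sided, p = 0.4). The ratio of Naip2 to the further paralog Naip6 was 3.30 and 2.89 with PBS and 3.94, 10.6 and 6.27 with Sema3G, higher in every Sema3G library at the smallest p the design allows (exact permutation test, two-sided, p = 0.2). Both ratios were chosen after their values were seen, and they are uncertain because the Naip genes are close paralogs between which the counting could have split reads.

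Among 11 genes listed for the triggering or licensing of inflammasomes, 10 were tested with a median of -0.29. Txnip, which encodes a thioredoxin-binding protein, differed on the log2 scale by -0.38 (adjusted p = 0.258), and Clic1, a chloride channel, of 0.15 (adjusted p = 0.637). The GTPases that coat bacteria and expose their LPS to caspase-11 were the list with the highest median, 0.10 over 5 of 5 genes. Gbp7 measured 24.7 and 16.6 CPM with PBS and 38.4, 36.1 and 35.03 CPM with Sema3G. It was higher in every Sema3G library at a log2 fold change of 0.82 (limma, adjusted p = 0.0930), and 1.03 after TMM scaling, where it passed (adjusted p = 0.0211). For Irgb10 the log2 fold change was -0.04 (adjusted p = 0.972).

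**Figure D5:**
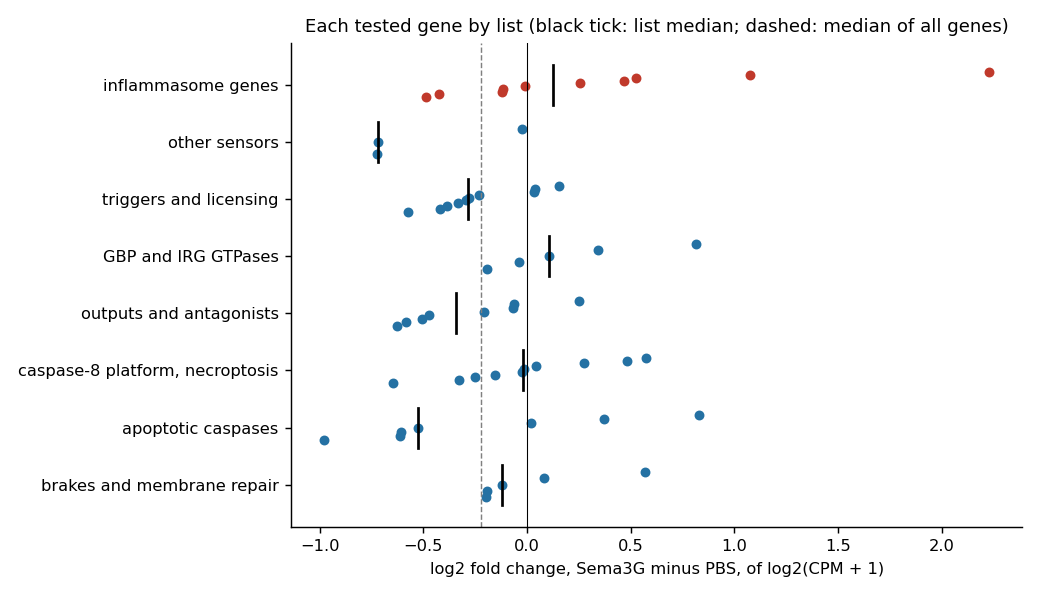
Log2 fold change (Sema3G minus PBS, on log2(CPM + 1)) of every tested gene, by list, with the 10 inflammasome genes in red and the pathway lists in blue; the black tick is the list median and the dashed line the median of all genes tested, -0.22. The medians run from -0.72 for the other sensors to 0.12 for the inflammasome genes.

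Of the 8 outputs of the pathway and their antagonists, all were tested and none passed, with a median of -0.34. Of these 8 log2 fold changes 7 were negative, as were 6805 of all 10088, and 4 lay above the median of all genes. Il1b, whose precursor caspase-1 cleaves, measured 1451 and 2495 CPM with PBS and 1110, 2119 and 1894 CPM with Sema3G, so the groups overlapped and its log2 fold change of -0.21 (limma, adjusted p = 0.702) was smaller than the spread between PBS libraries. Ninj1, which encodes the protein that ruptures the membrane of dying cells, differed on the log2 scale by -0.07 (adjusted p = 0.855). In 3 genes of the list, named after their values were seen, every Sema3G library was below both PBS libraries, against 26.5% of all genes tested. Il18, the other cytokine that caspase-1 releases, measured 32.4 and 19.8 CPM with PBS and 19.5, 18.5 and 16.1 CPM with Sema3G (log2 fold change -0.47, adjusted p = 0.330). Gsdme, a gasdermin cut by apoptotic caspases, and Il1rn, the IL-1 receptor antagonist, gave log2 fold changes of -0.63 (adjusted p = 0.293) and -0.58 (adjusted p = 0.189).

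Of the 10 genes of the caspase-8 platform and of necroptosis, all were tested and none passed. Cflar encodes cFLIP, a catalytically inactive relative that restrains caspase-8. It measured 76.9 and 61.6 CPM with PBS and 90.1, 96.6 and 103.3 CPM with Sema3G, above both PBS libraries in each case, with a log2 fold change of 0.48 (limma, adjusted p = 0.176). With CPM over listed genes other than Rn45s it was 0.77 and passed (adjusted p = 0.0229). The gene lies 36489 bases from Casp8, and the ratio of Casp8 to Cflar UMIs was 1.39 and 1.72 with PBS and 1.09, 0.757 and 0.670 with Sema3G. All 3 Sema3G ratios were below both PBS ratios, at the smallest p the design allows (exact permutation test, two-sided, p = 0.2), and this ratio too was chosen after its values were seen. Birc3, a ubiquitin ligase of the same platform, differed on the log2 scale by -0.25 (adjusted p = 0.454). Xiap, named after its values were seen, encodes a caspase inhibitor, and its log2 fold change was 0.58 (adjusted p = 0.142), and 0.78 after TMM scaling (adjusted p = 0.0375). Tradd, of the same list and likewise named after its values were seen, went the other way. Every Sema3G library was below both PBS libraries, at a log2 fold change of -0.65 (limma, adjusted p = 0.1945).

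The apoptotic caspases and their activator had the lowest median of the lists with at least 5 tested genes, -0.53 over 7 of 7. Casp6 measured 36.3 and 45.5 CPM with PBS and 29.5, 27.5 and 22.1 CPM with Sema3G, lower in every Sema3G library at a log2 fold change of -0.61 (limma, adjusted p = 0.163). Among genes that restrain the pathway or repair the membrane, 5 of 7 were tested. Chmp4b, a component of the ESCRT machinery that removes damaged membrane, differed on the log2 scale by -0.12 (adjusted p = 0.717), and Trim30a, a negative regulator of NLRP3, by 0.57 (adjusted p = 0.244). Trim30a measured 99.99 and 45.0 CPM with PBS and 134.6, 83.9 and 89.0 CPM with Sema3G, so the groups overlapped and the PBS libraries differed 2.22-fold. Leaving out PBS replicate 1 gave 1.14 on the log2 scale, which passed (limma, adjusted p = 0.0414).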

How the data were processed

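RNA from 2 PBS and 3 Sema3G samples was measured. The authors prepared 3′ libraries with UMIs, aligned them to mm10, obtained UMI counts of each gene in Strand NGS, and used EdgeR (3.12 in the submitters' notes) for normalization and testing. For that counting, gene models and strand setting were not given in the sources used here. Deposited by the authors were CPM values, and also the p-values plus q-values from the authors' comparison of the groups, which were not used. Every CPM value was a whole multiple of 1 UMI within 0.01 of a count (100% of values), which gave the UMI counts.

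For raw counts edgeR's quasi-likelihood test had been planned. As the unit is CPM, log2(CPM + 1) was instead tested by limma (3.58.1, in R 4.3.3) with its trend option, over the 10088 genes whose mean over all libraries reached 1 CPM, with Benjamini-Hochberg adjustment. edgeR (4.0.16) and DESeq2 (1.42.0) on the recovered counts, TMM scaling, CPM over listed genes other than Rn45s, the pseudocount (0.1 and 5), the filter, a replicate block and leaving out each library were alternatives. The scripts were tested on simulated data. Intervals of ratios and floors cover counting error only. Sema3G replicates 2 and 3 were the most similar pair of libraries (chi-square per degree of freedom 1.77), beyond the sampling noise, and were counted separately.

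The members and lists were chosen with earlier results of these data known. Named are all 10 members and, from each pathway list, the 2 genes with the highest mean CPM and any gene past the adjusted p limit. The result for 1 gene under this rule is not reported here. Other names and the gene ratios were chosen after their values were seen. Irgb10 is the row Gm12250, by its RefSeq synonym, and Gsdme the row Dfna5. Gene models came from GENCODE M21, promoters from RefSeq (GRCm38.p6). Markers of dendritic, mast and basophil, and stromal lineages summed to at most 0.556, 0.461 and 25.8 CPM in any library.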

Additional observations from a re-analysis of the deposited data

How the results depend on the processing

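Of the 14 alternatives, 12 kept Nlrp1b past the threshold, with log2 fold changes from 1.39 to 2.91 over all of them, and 5 brought Aim2 past it (range 0.73 to 1.42), whereas none called any of the other 8 genes. Genes of the set past the threshold numbered 1 in the main analysis and 2 with TMM scaling, with CPM over listed genes other than Rn45s, with edgeR's quasi-likelihood test and with the replicate block, and 0 to 2 with 1 library left out (0 without Sema3G replicate 2 or without Sema3G replicate 3, 2 without PBS replicate 2). Pathway genes past it numbered 0 in the main analysis, 2 with TMM scaling, 3 with CPM over listed genes (Gbp7, Xiap and Cflar), 2 with edgeR and 2 with the replicate block (Gbp7 and Trim30a), and 0 to 1 with 1 library left out (Trim30a, without PBS replicate 1). All genes past it numbered 182 in the main analysis, 108 with no filter, 327 with TMM scaling, 495 with CPM over listed genes, 304 with edgeR and 573 with the replicate block, and 26 to 856 with 1 library left out (26 without Sema3G replicate 2, 28 without Sema3G replicate 3, 92 without PBS replicate 1, 856 without Sema3G replicate 1). Higher against lower calls were 160 and 22 in the main analysis, 324 and 3 with TMM scaling, 493 and 2 with CPM over listed genes, 298 and 275 with the replicate block, and 303 and 553 without Sema3G replicate 1, where the balance turned. The direction of 3 genes turned. Nlrp3 turned to 0.19 with TMM scaling, 0.27 with CPM over listed genes, 0.29 with edgeR and 0.30 with DESeq2, and ran from -0.30 to 0.35 with 1 library left out. Pycard turned to 0.0818 with TMM scaling, 0.166 with CPM over listed genes, 0.0811 with edgeR and 0.0880 with DESeq2. Casp1 turned to 0.0864 with TMM scaling, 0.17 with CPM over listed genes, 0.11 with edgeR, 0.12 with DESeq2 and 0.0614 with the replicate block, and ran from -0.36 to 0.0698 with 1 library left out. The cause was not tested. Samples of the 2 groups share a replicate number and nothing that pairs them. Correlations of same-numbered deviations were 0.173 and 0.111. Those of PBS replicate 1 with Sema3G replicate 2, and of PBS replicate 2 with Sema3G replicate 1, were -0.111 and -0.173. With 2 PBS libraries their deviations mirror each other, so these values cannot show whether the samples are paired. The replicate block left 1 residual degree of freedom in place of 3. Without a PBS library, the lone PBS sample is assumed to vary like the Sema3G samples. At this depth a gene with under about 10 UMIs, as Nlrp1b with PBS, has a wide counting interval, and its fold change depends on the pseudocount.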
